A study of Mus musculus with 114 samples.

Results

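The question was how the difference between a high fat diet (HFD) and a chow diet (CD) in adipocyte mRNA after 34 weeks of feeding departed from the difference after 8 weeks. All 26 mice of the 4 groups concerned were used, of 38 mice in the series, and 10328 of 29132 genes were tested, namely those with a mean log2(CPM + 1) above 2 over these mice. CPM is the number of reads of a gene per 1000000 reads on all listed genes of a mouse. For each gene the interaction was taken as the HFD minus CD difference at 34 weeks minus that at 8 weeks, in log2 units of CPM + 1. A negative interaction therefore means that HFD mice, relative to CD mice, were lower at 34 than at 8 weeks, and a positive interaction the reverse.

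There were 6 mice on CD and 6 on HFD for 8 weeks, and 8 on CD and 6 on HFD for 34 weeks. All were male C57BL/6J mice for which the labels give no engineered allele, and feeding began at 6 weeks of age, so that weeks of feeding and age cannot be told apart. RNA came from the adipocyte fraction of the perigonadal fat pad, the cells that float after collagenase digestion, and polyadenylated RNA was sequenced with 3 technical replicates per mouse that had been merged to 1 value. The mice fed for 20 weeks were not used. For CD the paper's methods name alternative control diets and do not say which group received which. The CD mice of 8 and 34 weeks may therefore have differed in diet as well as in time, and this was not tested.

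White adipocytes store triglyceride, and part of their fatty acid is made from acetyl-CoA by de novo lipogenesis, a chain of enzymes that includes ATP citrate lyase, fatty acid synthase, elongases and stearoyl-CoA desaturases. The transcription factors SREBP-1c and ChREBP drive these genes, whereas SREBP-2 drives those of the mevalonate pathway to cholesterol. In obesity the fat pad is remodelled by collagens, including collagen VI around the adipocytes, and macrophages collect around dying adipocytes.

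The floating fraction carried the defining adipocyte transcripts. Adipoq, which encodes adiponectin, was at 4930 to 5890 CPM in 8 week CD and 2070 to 5300 CPM in 34 week HFD mice, the lowest of the 4 groups by median (3000 CPM). The T cell marker Cd3e was at 0.0933 CPM or less in every mouse. The summed level of 19 T and NK cell markers was low but moved with the groups. It was 0.705 to 3.98 CPM in 8 week CD, 2.88 to 10.6 in 8 week HFD, 2.37 to 9.7 in 34 week CD and 2.85 to 10.5 in 34 week HFD mice. The epididymis lies against this fat pad, and the summed level of 19 epididymis and testis markers was 11.6 to 72.9 CPM in 8 week CD, 2.94 to 8.69 in 8 week HFD, 1.69 to 11.3 in 34 week CD and 2.24 to 17 in 34 week HFD mice. At 8 weeks these sums did not overlap between the diets, although Lcn5, an epididymal lipocalin, was at 0.555 CPM or less everywhere and the sperm gene Prm1 reached 10.4 CPM in 8 week CD and at most 0.986 CPM in the other groups. Macrophage transcripts were present and moved with the groups. The summed level of 24 macrophage markers ran from 679 to 2660 CPM in 8 week CD, 1790 to 5670 in 8 week HFD, 1730 to 18800 in 34 week CD and 8600 to 26000 in 34 week HFD mice. In these bulk samples more cells of a type and more RNA per cell cannot be told apart. The reads on genes numbered 9275711 to 15480388 per mouse, and at 8 weeks the diets did not overlap in depth, with at most 12611013 reads in CD and at least 13201234 in HFD mice.

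In the 34 week CD group 1 mouse lay nearer to the HFD mean than to the CD mean of its time. When each mouse was placed on the line between the mean of the CD mice (0) and the mean of the HFD mice (1) of its time, over all genes tested and with its own values left out, mouse 5 of the 34 week CD group lay at 0.89. The other 34 week CD mice lay between -0.8 and 0.33. Mouse 6 of this group, at -0.8, was thus almost as far from the CD mean on the other side, and mouse 4 lay at -0.54. The 8 week CD mice lay between -0.13 and 0.2. HFD mice lay between 0.51 and 1.48 at 8 weeks and between 0.43 and 1.42 at 34 weeks. Mouse 6 of the 34 week HFD group was the lowest and lay nearer to the CD mean. Mouse 5 of the 34 week CD group also had the highest macrophage sum of its group. Nothing in its label sets it apart, so it was kept. Some of the results that rest on the 34 week CD mice are also given without it, and the others with all mice only. This placing of the mice was added after the data had been seen.

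**Figure D1:**
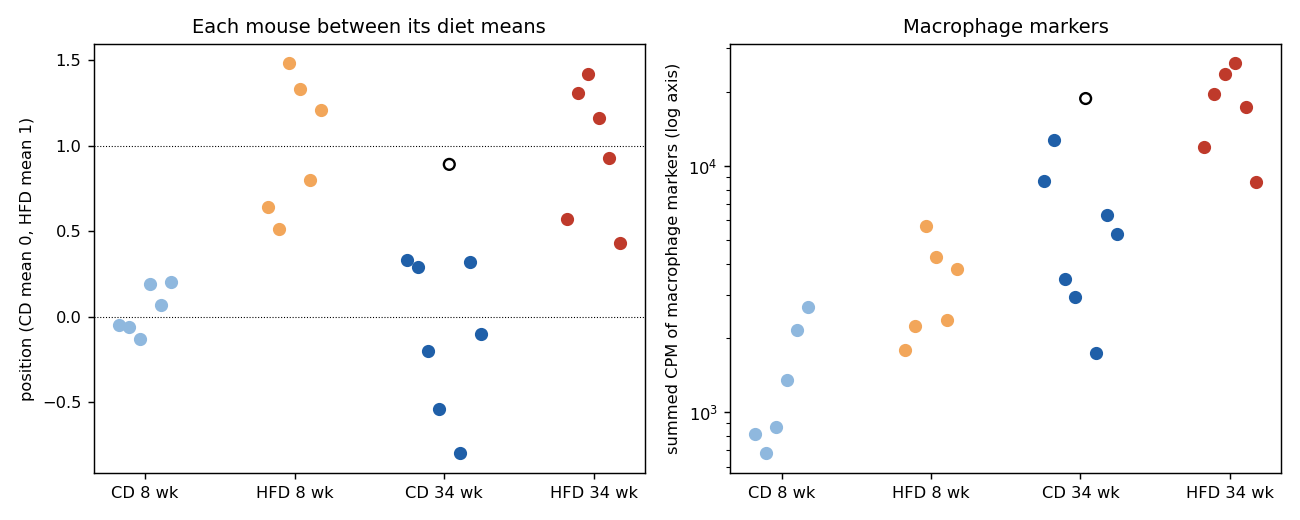
Left, position of each mouse on the line from the CD mean (0) to the HFD mean (1) of its own feeding time, over all genes tested (no unit). Right, summed CPM of 24 macrophage markers per mouse on a log axis. Each point is 1 mouse, and the open circle is mouse 5 of the 34 week CD group, which lies at 0.89 among the HFD mice.

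The diet difference changed between the times in 2279 genes (22.1% of those tested), with 999 positive (9.67%) and 1280 negative (12.4%) interactions. Counts of called members in the gene lists below are to be read against these shares. Of the 2279 genes, 652 had an interaction of at least 1 log2 unit. Without mouse 5 of the 34 week CD group the calls numbered 1397 positive and 1596 negative, and over fits that each lacked 1 mouse the total ranged from 1646 (without mouse 3 of the 34 week HFD group) to 2993 (without mouse 5 of the 34 week CD group). With median-of-ratios size factors the split turned to 1237 positive and 1039 negative.

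The diet itself was called in 4019 genes at 8 weeks (38.9%), 2686 higher (26%) and 1333 lower (12.9%) in HFD mice. At 34 weeks it was called in 3892 genes (37.7%), 2507 higher (24.3%) and 1385 lower (13.4%). These splits depended on the scaling, since with TMM factors they were 1987 higher and 1866 lower at 8 weeks and 2051 higher and 1771 lower at 34 weeks. On the CPM scale the median over all genes tested was 0.11 log2 units at 8 weeks and 0.07 at 34 weeks, and with TMM factors 0.007 and -0.009. The medians of gene groups below are therefore to be read against these. At 8 weeks the ranges of the diets were free of overlap in 2356 genes (22.8%), and 253 (2.45%) had no overlap at 34 weeks. Without mouse 5 the latter number was 910 (8.81%), and leaving out any other 34 week mouse brought it to at most 502. Freedom from overlap was harder to reach at 34 weeks, with 8 CD mice and a wider spread. The mean SD in log2 units was 0.401 on CD and 0.33 on HFD, against 0.232 and 0.258 at 8 weeks. With array weights per group, which allow unequal spread, the diet was called in 5648 genes at 8 weeks and 2869 at 34 weeks.

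The interactions were classed by when the diet difference was called. Of the 2279 genes, 1155 (50.7%) had a diet difference that was called at 8 but not at 34 weeks (lost), of which 700 had been higher and 455 lower in HFD mice. In 715 genes (31.4%) the difference was called at 34 weeks only (gained), 371 higher and 344 lower in HFD. The difference was turned round in 256 genes (11.2%), 152 from higher to lower and 104 from lower to higher. In 14 genes it was narrowed, in 3 it was widened, and in 136 it was called at neither time. Lost was the largest class here, but without mouse 5 of the 34 week CD group 1203 of 2993 genes were lost, 1120 gained and 453 turned round. Gained and turned genes were also fewer without mouse 3 (353 and 156) or mouse 2 (402 and 159) of the 34 week HFD group.

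More genes were called as changed with time on CD than on HFD. The CD change rested on 6 and 8 mice and the HFD change on 6 and 6. Its standard error was therefore smaller on CD, as in Scd2 (0.501 against 0.536), which makes calls easier on CD. Between the times 6374 genes (61.7%) changed on CD, 3972 up (38.5%) and 2402 down (23.3%), and 4950 (47.9%) on HFD, 3029 up (29.3%) and 1921 down (18.6%). With median-of-ratios size factors the splits were 3080 up and 3105 down on CD, and with TMM factors 2507 up and 2401 down on HFD. Of the 2279 genes with an interaction, 1263 (55.4%) changed with time on CD alone, 575 (25.2%) on HFD alone, 234 (10.3%) on both in opposite directions and 152 (6.67%) on both in the same direction. The absolute change with time was larger on CD than on HFD in 1481 of them (65%), against 5714 of all 10328 genes tested (55.3%). Arms differed by class: 803 of the 1155 lost differences were of genes that changed on CD alone, whereas of the 715 gained differences 356 changed on HFD alone and 244 on CD alone. Of the 256 turned genes, 126 changed on CD alone and 97 on both diets in opposite directions.

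**Figure D2:**
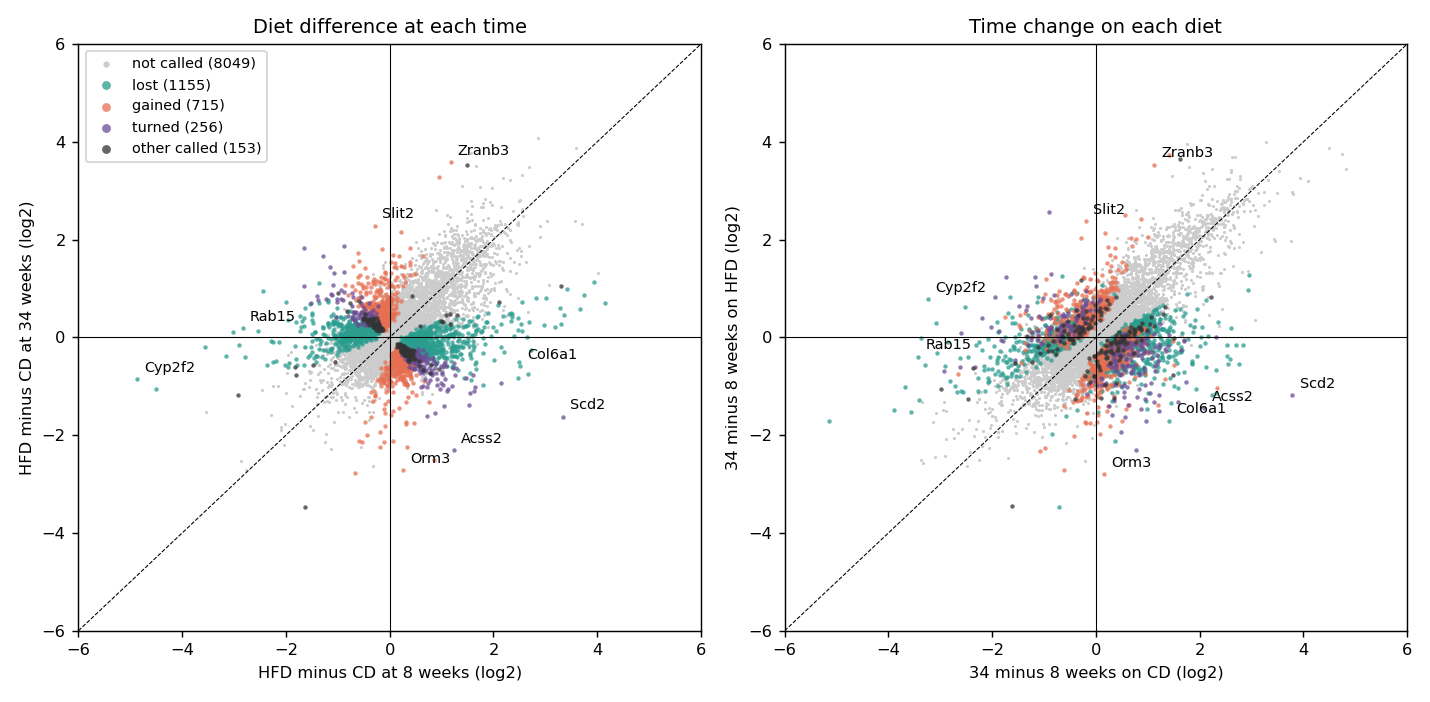
Each point is 1 of 10328 genes. Left, HFD minus CD at 8 weeks (x) against 34 weeks (y); right, the change from 8 to 34 weeks on CD (x) against HFD (y), all in log2 of CPM + 1. Colours mark the 2279 genes with a called interaction by class, the dashed line marks equal values, and lost genes lie along the horizontal axis on the left.

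De novo lipogenesis had the most negative median interaction of the gene lists. Of 18 members tested, 11 had a negative and 0 a positive interaction, and the median interaction was -1.32 log2 units, against -0.007 over all genes tested. At 34 weeks 15 of the 18 were lower in HFD mice, with a median difference of -1.48. Of the 11 genes, 8 were gained and 2 turned round, and Pnpla3 was called at neither time. On CD 7 members rose and 2 fell with time, whereas on HFD 1 rose and 10 fell. Without mouse 5 of the 34 week CD group 12 were negative, with a median of -1.55. At 8 weeks 2 were higher and 4 lower, and the sign of the median difference at that time changed with the scaling.

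Scd2 (Entrez 20250, chromosome 19, 44293676 to 44306864), a stearoyl-CoA desaturase that puts the first double bond into saturated fatty acids, had the largest negative interaction of the named genes. It was at 27.1 to 159 CPM (median 63.3) in 8 week CD, 167 to 1260 (760) in 8 week HFD, 144 to 1740 (905) in 34 week CD and 170 to 586 (234) in 34 week HFD mice. The HFD values were all above the CD values at 8 weeks, and at 34 weeks they were all below those of the CD mice but mouse 5, which at 144 CPM was the lowest of that time. The diet difference went from 3.34 to -1.62 log2 units, an interaction of -4.96 (SE 0.733, adjusted p = 0.000238). The chow arm carried the change, with 3.79 units from 8 to 34 weeks on CD (adjusted p = 2.43e-06) against -1.18 on HFD (adjusted p = 0.0722).

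Acss2 (Entrez 60525, chromosome 2, 155518043 to 155562743), the enzyme that makes acetyl-CoA from acetate in the cytosol, also turned round. Its range was 64.4 to 99.5 CPM (median 80.4) in 8 week CD, 101 to 278 (224) in 8 week HFD, 85 to 1360 (283) in 34 week CD and 41.8 to 120 (74) in 34 week HFD mice. The interaction was -3.53 (SE 0.629, adjusted p = 0.000715), and the gene rose on CD by 2.09 while it fell by 1.44 on the log2 scale on HFD, both called. In Elovl6 (Entrez 170439, chromosome 3, 129532386 to 129638495), the elongase that extends palmitate, the medians of the same groups were 17.6, 36.6, 104 and 14.4 CPM. Its diet difference was gained, at 0.86 units at 8 weeks (adjusted p = 0.155) and -2.51 at 34 weeks (adjusted p = 0.000439), with an interaction of -3.37 (SE 0.651, adjusted p = 0.0012).

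Fasn (Entrez 14104, chromosome 11, 120805958 to 120825166), fatty acid synthase, was among the most abundant of these transcripts. It ranged from 1660 to 4140 CPM (median 2370) in 8 week CD, 1800 to 4270 (3750) in 8 week HFD, 975 to 18000 (5280) in 34 week CD and 668 to 2150 (1230) in 34 week HFD mice. The 8 week groups overlapped, and at 34 weeks the groups were separated but for mouse 5 at 975 CPM. The other 34 week CD mice were split. Mice 4, 6 and 8 were at 13801 to 18022 CPM. Mice 1, 2, 3 and 7 were at 2670 to 5555 CPM, which overlapped the 8 week CD range. Mice 4, 6 and 8 were also the highest for Acss2, but for Scd2 mouse 6 lay below mice 1, 2, 3 and 7. The interaction of -2.57 (SE 0.716, adjusted p = 0.0136) became -2.93 (SE 0.592, adjusted p = 0.00103) without mouse 5 of the 34 week CD group. Other members with a gained lower difference were Scd1, Acly (ATP citrate lyase), Me1 (malic enzyme), Thrsp, Slc25a1 (the mitochondrial citrate carrier) and Slc2a4 (the insulin-regulated glucose transporter). Srebf1 and Mlxipl, which encode SREBP-1 and ChREBP, had no called interaction.

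**Figure D3:**
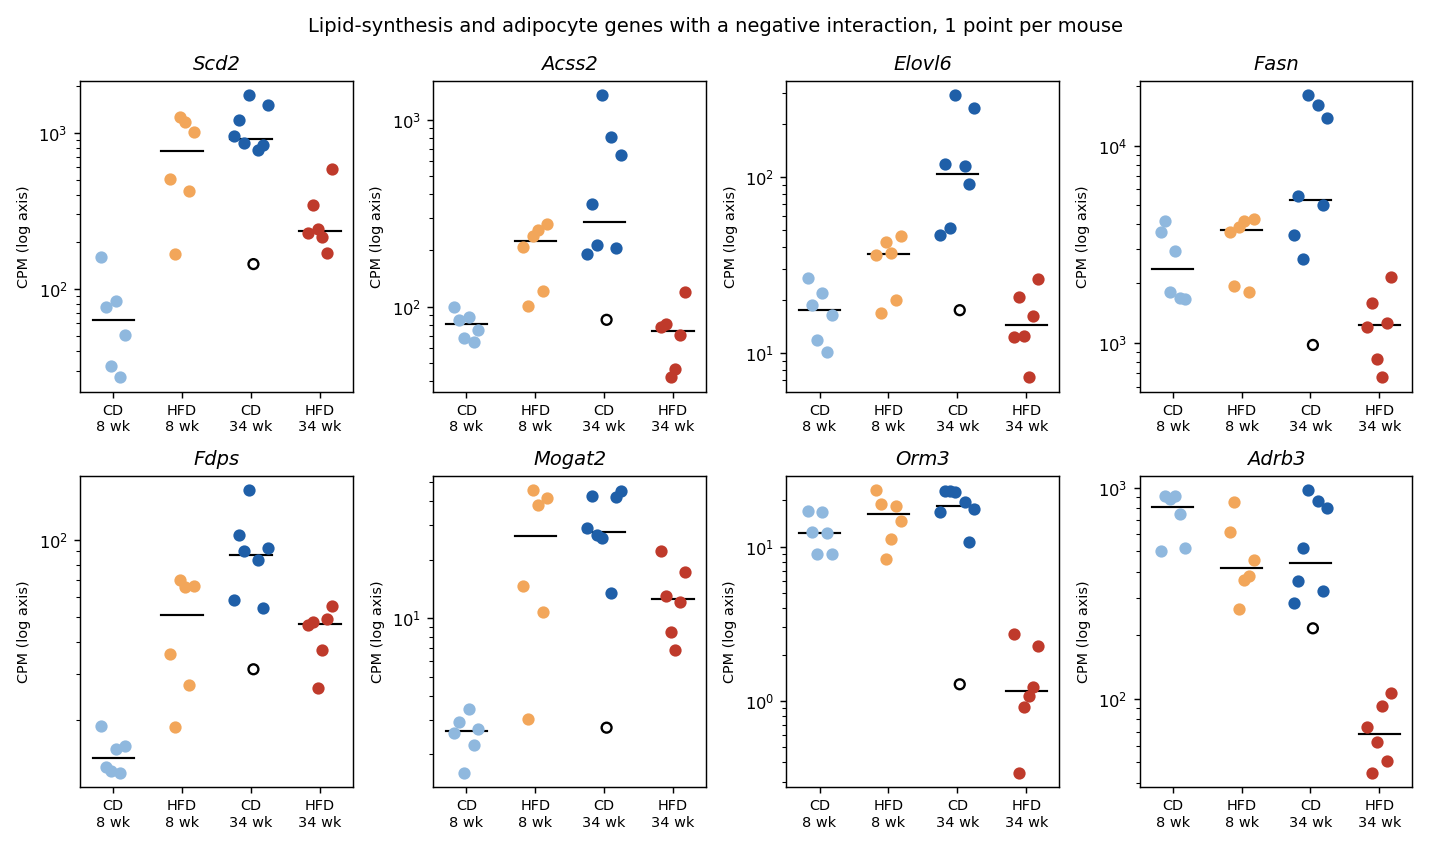
CPM per mouse on a log axis for 8 genes with a negative interaction, by diet and week, with 1 point per mouse and a line at the group median. The open circle is mouse 5 of the 34 week CD group, which lies with or near the HFD mice in most of these panels, as for Fasn at 975 CPM.

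Cholesterol synthesis genes were higher on HFD early, and the chow mice rose later. Of 22 members tested 10 had a negative interaction and 1 a positive one, with a median of -0.84 log2 units. At 8 weeks 15 were higher and 1 lower in HFD mice (median 0.79), and at 34 weeks 4 were higher and 5 lower (median -0.26). On CD 16 rose with time and 0 fell (median 0.87), and on HFD 2 rose and 1 fell (median -0.16). Of the 10 negative genes, Fdps, Pmvk, Mvk and Tm7sf2 were turned round and the other 6 lost. The positive one was Srebf2, which encodes SREBP-2 (0.52, adjusted p = 0.0323). Without mouse 5 there were 14 negative and 1 positive, with a median of -0.97.

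Fdps (Entrez 110196, chromosome 3, 89093588 to 89101967), which makes farnesyl diphosphate, ran from 12.5 to 18.9 CPM (median 14.3) in 8 week CD, 18.7 to 69.8 (50.8) in 8 week HFD, 31.4 to 155 (86.8) in 34 week CD and 26.5 to 55.3 (47.2) in 34 week HFD mice. Every CD mouse was higher at 34 than at 8 weeks, while the range of the 34 week HFD mice lay within that of the 8 week HFD mice. The interaction was -2.3 (SE 0.431, adjusted p = 0.00103), with a change of 2.31 on CD and 0.01 on HFD. Insig1, the SREBP-retaining protein of the endoplasmic reticulum, was at 66.7 to 146 CPM in 8 week CD and at 151 to 484 CPM in 8 week HFD mice, without overlap, and was lost as a diet difference at 34 weeks (interaction -1.91, adjusted p = 0.00263).

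Promoter sequence was examined because these genes moved together. The CCAAT box, bound by the factor NF-Y that acts beside SREBP on sterol genes, was searched on both strands (CCAAT or ATTGG) in the 250 bases before the start of each gene in RefSeq (GRCm38.p6). It was present in 14 of the 15 cholesterol synthesis genes tested that had a sequence (93.3%) and in 9 of 14 de novo lipogenesis genes (64.3%), against 34.5% of 27025 genes with a sequence. The share was 52.6% in the splicing list, 50% in collagens and 30.3% in complex I, described below. Among genes tested with a sequence it was 36%. Of members with a called interaction and a sequence, 8 of 9 cholesterol and 5 of 8 lipogenesis genes had the box. The same held for 11 of 24 splicing, 2 of 6 collagen and 5 of 12 complex I genes. The motif was chosen with the results known, and a match is only a string of letters. The 3 cholesterol genes with the most negative interaction that had a sequence, and Acss2 for lipogenesis, are shown 5′ to 3′ with the box in capitals, all from the plus strand of GRCm38.p6, at chr5:28071162-28071411, chrX:72918271-72918520, chr10:76531355-76531604 and chr2:155517793-155518042.
Insig1: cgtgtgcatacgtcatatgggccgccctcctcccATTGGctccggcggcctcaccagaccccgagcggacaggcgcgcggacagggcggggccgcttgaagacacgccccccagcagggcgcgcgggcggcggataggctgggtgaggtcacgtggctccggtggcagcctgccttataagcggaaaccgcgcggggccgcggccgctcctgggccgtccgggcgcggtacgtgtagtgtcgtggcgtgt
Nsdhl: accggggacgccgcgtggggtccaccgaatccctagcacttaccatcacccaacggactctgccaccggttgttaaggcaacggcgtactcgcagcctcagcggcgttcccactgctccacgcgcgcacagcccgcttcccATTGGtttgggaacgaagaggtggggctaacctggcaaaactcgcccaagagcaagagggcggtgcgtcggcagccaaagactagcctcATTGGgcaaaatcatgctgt
Lss: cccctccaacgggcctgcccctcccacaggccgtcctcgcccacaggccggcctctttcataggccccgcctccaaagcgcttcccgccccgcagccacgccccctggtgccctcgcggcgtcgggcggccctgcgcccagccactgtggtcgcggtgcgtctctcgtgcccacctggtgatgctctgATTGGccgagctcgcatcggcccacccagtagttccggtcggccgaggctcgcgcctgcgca
Acss2: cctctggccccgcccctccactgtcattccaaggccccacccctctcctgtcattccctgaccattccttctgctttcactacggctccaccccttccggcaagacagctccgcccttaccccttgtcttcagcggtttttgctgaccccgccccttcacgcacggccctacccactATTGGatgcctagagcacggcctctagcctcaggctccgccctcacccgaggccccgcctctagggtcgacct
The box stood once in Insig1, Lss and Acss2 and at 2 places in Nsdhl, in the orientation ATTGG each time.

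In triglyceride synthesis and in lipid droplet genes 4 of 21 and 6 of 21 interactions were called, shares near the 22.1% of all genes tested. Among 21 triglyceride synthesis and uptake genes 3 interactions were negative (Mogat2, Fabp5, Agpat2) and 1 was positive (Acsl4). Mogat2 (Entrez 233549, chromosome 7, 99219084 to 99238611), which joins a fatty acid to monoacylglycerol, was at 1.61 to 3.43 CPM (median 2.63) in 8 week CD, 3.03 to 45.3 (26.3) in 8 week HFD, 2.74 to 45.1 (27.9) in 34 week CD and 6.83 to 22 (12.6) in 34 week HFD mice. Apart from the lowest 8 week HFD mouse and mouse 5 of the 34 week CD group, the 8 week CD mice lay below all others. The interaction was -3.31 (SE 0.744, adjusted p = 0.00344). Without mouse 5 of the 34 week CD group the diet difference of Mogat2 at 34 weeks was called (-1.22, adjusted p = 0.0226), which it was not with all mice. Fabp5, a fatty acid carrier that macrophages also express, reached 356 to 718 CPM in 34 week CD against 48.5 to 82.9 in 8 week CD mice, and its diet difference of 1.84 at 8 weeks was -0.13 at 34 weeks (interaction -1.97, adjusted p = 0.00102). Among 21 lipolysis and lipid droplet genes 5 were negative (Adrb3, G0s2, Aqp7, Gnai1 and Prkar2b) and 1 positive (Hilpda, 1.95, adjusted p = 0.00899), and among 23 fatty acid oxidation genes Acaa2 and Hadhb were negative and Acot2 positive. Acsl4, an acyl-CoA synthetase for arachidonic acid, turned the other way, from -1.01 to 0.77 (interaction 1.79, adjusted p = 0.00103). In Hilpda too the diet difference at 34 weeks was called only without mouse 5 of the 34 week CD group (0.993, adjusted p = 0.0116).

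Adipocyte identity and secreted genes had 6 negative and 0 positive interactions among 31 tested, with a median of -0.44. That share of called genes was near the 22.1% of all genes tested, of which 12.4% were negative. At 34 weeks 19 were lower and 1 higher in HFD mice (median -0.57), and 19 fell and 1 rose with time on HFD. Adrb3 (Entrez 11556, chromosome 8, 27225776 to 27230845), the beta-3 adrenergic receptor that starts lipolysis, was at 500 to 916 CPM (median 813) in 8 week CD, 267 to 853 (416) in 8 week HFD, 216 to 971 (440) in 34 week CD and 44.7 to 107 (68) in 34 week HFD mice. At 34 weeks every HFD mouse lay below every CD mouse, mouse 5 included, and below every HFD mouse of 8 weeks. The interaction was -2.1 (SE 0.464, adjusted p = 0.00307), and the gene fell by 2.71 on HFD. The others were Rbp4, Klf15 and Retn (gained, lower at 34 weeks), Agt (widened) and Npr3 (lost). Adipoq (-0.42, adjusted p = 0.295), Plin1 (-0.31, adjusted p = 0.384), Pparg (-0.55, adjusted p = 0.0737) and Lep (-1.62, adjusted p = 0.0542) missed the threshold on the CPM scale with all mice. Lep passed it with all mice in the tests on counts (edgeR -1.93, adjusted p = 0.0181) and with TMM factors (-1.59, adjusted p = 0.0492). Without mouse 5 of the 34 week CD group Lep (-1.82, adjusted p = 0.0195) and Pparg (-0.6, adjusted p = 0.0453) passed it.

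Orm3 encodes an orosomucoid, a secreted acute-phase protein. Orm3 (Entrez 18407, chromosome 4, 63356069 to 63359506) was at 8.99 to 17.1 CPM (median 12.3) in 8 week CD, 8.33 to 23.3 (16.5) in 8 week HFD, 1.28 to 23.2 (18.5) in 34 week CD and 0.343 to 2.71 (1.16) in 34 week HFD mice. The 34 week HFD mice lay below all mice of the other groups except mouse 5, at 1.28 CPM. The difference was gained (interaction -2.96, SE 0.569, adjusted p = 0.00116), and HFD was the arm that moved, by -2.8 against 0.16 on CD. Its neighbour Orm2 turned from 1.53 at 8 weeks to -1.38 at 34 weeks (interaction -2.91, adjusted p = 0.00103). The orosomucoid genes are near copies of each other, so reads could be split between them.

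Genes of the respiratory chain and of mitochondrial ribosomes rose with time on chow, and few of them rose on HFD. Of 37 complex I subunits 30 rose and 0 fell on CD (median 0.52), against 0 and 0 on HFD (median -0.01). At 34 weeks 28 were lower in HFD mice (median -0.45), and 12 had a negative and 0 a positive interaction (median -0.51). In complexes III to V the interaction was negative in 7 and positive in 0 of 36 (median -0.52), a share near the 22.1% called over all genes tested. Of these 36 genes 29 rose and 0 fell on CD, and 1 rose and 0 fell on HFD. Mitochondrial ribosomal proteins gave 22 negative and 0 positive interactions of 75 (median -0.4). Of these genes 61 rose and 1 fell on CD, and 11 rose and 2 fell on HFD. Of the called genes in the 3 lists, 12 of 12, 7 of 7 and 21 of 22 changed with time on CD alone. With TMM factors the negative interactions were 8, 5 and 18, and without mouse 5 of the 34 week CD group 16, 12 and 27. The time changes depended on the scaling as well, since with TMM factors 21, 22 and 50 genes rose on CD and 0, 1 and 1 on HFD. At 8 weeks the median diet differences of these 3 lists changed sign with the scaling.

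Ndufab1, the acyl carrier subunit of complex I, was at 84.8 to 116 CPM (median 94.8) in 8 week CD, 107 to 136 (123) in 8 week HFD, 110 to 207 (158) in 34 week CD and 64.7 to 130 (105) in 34 week HFD mice. All 4 ranges overlapped with at least 1 other, and the interaction was -0.98 (SE 0.239, adjusted p = 0.00608). Cytosolic ribosomal proteins did not show this pattern. Of 75 tested 71 rose and 1 fell on CD and 64 rose and 1 fell on HFD, and the only called interaction was that of Rpl3 (0.59, adjusted p = 0.0147). Among 30 genes of the TCA cycle and pyruvate dehydrogenase 6 interactions were negative and 0 positive (median -0.39), the largest in Mpc2, a subunit of the mitochondrial pyruvate carrier (-1.28, adjusted p = 0.0044). That share too was near the 22.1% called over all genes tested, and with TMM factors 3 were negative. Of 24 genes of branched-chain amino acid breakdown 12 were lower and 2 higher on HFD at 8 weeks and 13 and 2 at 34 weeks, and with time 0 rose and 10 fell on CD and 1 rose and 11 fell on HFD. Of 23 fatty acid oxidation genes 7 rose and 6 fell on CD.

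**Figure D4:**
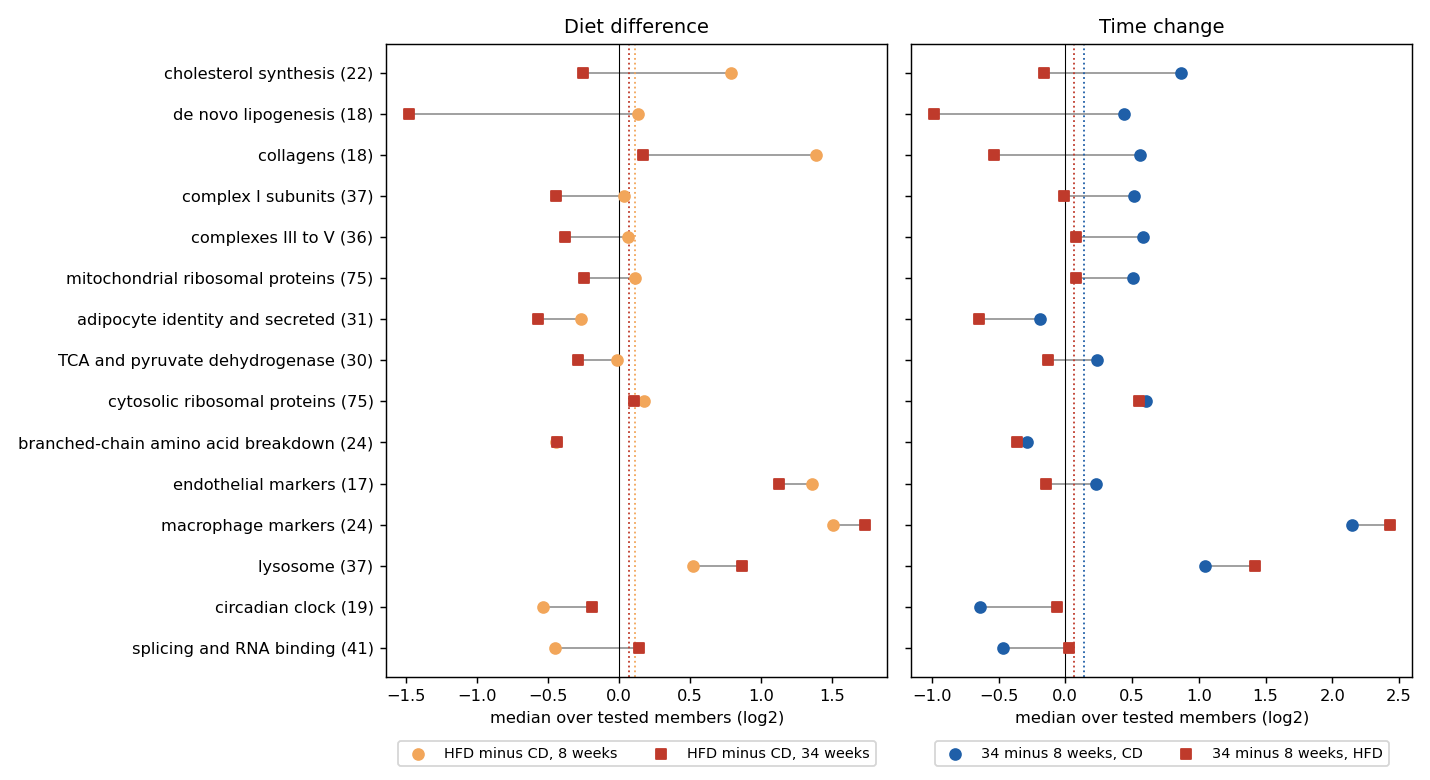
Median over the tested members of 15 gene lists (number in brackets), in log2 of CPM + 1. Left, HFD minus CD at 8 and 34 weeks; right, the change from 8 to 34 weeks on CD and HFD. Dotted lines mark the medians over all genes tested. Collagens sit at 1.39 at 8 weeks and 0.17 at 34 weeks, and complex I at 0.52 on CD and -0.01 on HFD.

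Collagens rose early on HFD and this difference was largely lost. At 8 weeks 13 of 18 tested were higher and 0 lower in HFD mice (median 1.39), and at 34 weeks 4 were higher and 1 lower (median 0.17, a value whose sign changed with the count tests). The interaction was negative in 7 and positive in 0 (median -0.95), namely Col6a1, Col6a2, Col16a1, Col5a3, Col1a1, Col5a1 and Col15a1. Both arms moved: on CD 9 rose and 0 fell with time, and on HFD 1 rose and 6 fell. Of the 7, 5 changed in opposite directions on the 2 diets. Without mouse 5 of the 34 week CD group 9 were negative and 1 positive.

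Col6a1 (Entrez 12833, chromosome 10, 76708792 to 76726044), a chain of collagen VI, was at 86.1 to 210 CPM (median 155) in 8 week CD, 392 to 1380 (899) in 8 week HFD, 197 to 539 (475) in 34 week CD and 189 to 308 (275) in 34 week HFD mice. The diets did not overlap at 8 weeks, and on HFD every mouse of 34 weeks lay below every mouse of 8 weeks. The interaction was -3.11 (SE 0.418, adjusted p = 9.88e-05), with 1.4 on CD and -1.7 on HFD. Pcolce2 (Entrez 76477, chromosome 9, 95637628 to 95695551), an enhancer of procollagen cleavage, was at 1.12 to 5.63 CPM in 8 week CD and 15.7 to 138 CPM in 8 week HFD mice. At 34 weeks it was at 3.05 to 47.8 CPM on CD and 15.5 to 46.4 CPM on HFD, and the interaction was -3.44 (SE 0.792, adjusted p = 0.00391). Serpinh1, the collagen chaperone, was also lost (-2.16, adjusted p = 0.000338). Nid2, a basement membrane linker, turned from 0.99 to -0.92 (-1.91, adjusted p = 0.00073).

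The rest of the matrix was mixed. Among 40 matrix glycoproteins and proteoglycans 7 interactions were negative and 4 positive, and 23 were higher in HFD mice at 8 weeks and 13 at 34 weeks. Dcn, the collagen-binding proteoglycan decorin, was gained (interaction 1.38, adjusted p = 0.00681), and fell on CD by 0.81 on the log2 scale (adjusted p = 0.00491). Among 28 matrix enzymes 5 were negative and 2 positive. Mmp19, a metalloproteinase, turned from -0.93 to 0.78 (1.71, adjusted p = 0.000776), and all 34 week CD mice (92.4 to 247 CPM) lay below all 8 week CD mice (483 to 722 CPM). Sfrp5 (Entrez 54612, chromosome 19, 42197971 to 42202252), a secreted Wnt inhibitor, rose from 15.1 to 48.1 CPM in 8 week CD to 44.5 to 506 CPM in 34 week CD mice, against 233 to 530 and 148 to 489 CPM on HFD. Its early difference of 3.67 was lost (interaction -3.1, SE 0.679, adjusted p = 0.00298). Cdkl4, a kinase, was also high on HFD early (3.64 to 37.3 CPM against 0.473 to 2.53 CPM on CD) and lost that difference (interaction -3.43, adjusted p = 0.00477). Among 9 tubulins Tuba1a, Tuba1b and Tubg1 were negative and Tubb5 and Tubb6 positive. Among 36 actin and focal adhesion genes Myl6 and Parva were negative and Pxn and Lima1 positive, while 18 were higher in HFD mice at each time. In the TGF-beta family, with 28 genes tested, Fstl3 and Bmp3 were negative and Acvr1b, Tgfbr1 and Fst positive.

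Among the largest positive interactions were those of Rab15, Cyp2f2, Prg4, Cyp1b1 and Pon1, which were lower on HFD at 8 weeks and lost that difference. The 8 week CD mice, in which these genes were high, also had the highest epididymis and testis marker sums by median (17.8 CPM against 3.21 to 4.89 CPM), and the part of those tissues in these results was not tested. Rab15 (Entrez 104886, chromosome 12, 76797960 to 76822759), a small GTPase of endosome recycling, was at 56 to 117 CPM (median 90.3) in 8 week CD, 9.3 to 15.5 (10.5) in 8 week HFD, 4.42 to 13.5 (7.19) in 34 week CD and 5.21 to 10.7 (8.89) in 34 week HFD mice. The 8 week CD mice lay above all others, and the other 3 groups overlapped. The interaction was 3.03 (SE 0.29, adjusted p = 7.19e-07), with a change of -3.42 on CD and -0.39 on HFD (adjusted p = 0.129).

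Cyp2f2 (Entrez 13107, chromosome 7, 27119955 to 27133660), a cytochrome P450 known from the lung, had the largest positive value. It was at 45.9 to 204 CPM (median 73.9) in 8 week CD, 0.388 to 4.55 (2.13) in 8 week HFD, 3.21 to 29.2 (7.93) in 34 week CD and 0.822 to 8.18 (4.48) in 34 week HFD mice. The interaction was 4.02 (SE 0.631, adjusted p = 0.000296), and the diets overlapped at 34 weeks. Prg4 (Entrez 96875, chromosome 1, 150449412 to 150466221), the lubricant proteoglycan of joints and serosal surfaces, followed the same order, at 100 to 171 CPM in 8 week CD and at 28.4 CPM or less in both HFD groups (interaction 3.36, SE 0.608, adjusted p = 0.00078). In 34 week CD mice it ran from 3.98 to 43.8 CPM.

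Cyp1b1, a cytochrome P450 that acts on steroids and retinoids, was at 38.6 to 94.6 CPM in 8 week CD, 7.24 to 23.6 in 8 week HFD, 3.16 to 52.9 in 34 week CD and 9.43 to 23.8 in 34 week HFD mice (interaction 3.38, SE 0.61, adjusted p = 0.000763). Its highest 34 week CD value was again that of mouse 5, and without it the CD mice (3.16 to 7.7 CPM) lay below all HFD mice, so that the difference turned round rather than being lost (1.34 at 34 weeks, adjusted p = 0.00052). Pon1, a lactonase of lipoproteins, went from 14.8 to 44.1 CPM in 8 week CD to 0.891 to 17.7 CPM in 34 week CD mice (interaction 3.15, adjusted p = 0.00197).

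Genes of RNA binding and splicing formed the largest group with positive interactions. Of 41 tested 25 were positive and 0 negative (median 0.63), where 9.67% of all genes tested were positive. At 8 weeks 29 were lower and 0 higher in HFD mice (median -0.45), and at 34 weeks 1 was lower and 8 higher (median 0.14). On CD 32 fell and 2 rose with time (median -0.47), and on HFD 1 fell and 12 rose, with a median of 0.02 whose sign changed with the scaling. Of the 25 genes 18 were lost, 3 gained and 4 turned round, and 18 changed on CD alone. The count was 28 with TMM factors, 31 with DESeq2 and 33 without mouse 5 of the 34 week CD group.

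Ddx17 (Entrez 67040, chromosome 15, 79527696 to 79546764), an RNA helicase that takes part in splicing, was at 329 to 398 CPM (median 358) in 8 week CD, 151 to 290 (222) in 8 week HFD, 132 to 231 (154) in 34 week CD and 153 to 226 (192) in 34 week HFD mice. The 8 week CD mice lay above all others. The interaction was 0.999 (SE 0.203, adjusted p = 0.00186), and the gene fell by 1.15 on CD. Srrm2, Hnrnpu, Ddx5, Clk4 and Son, all of them parts or regulators of the splicing machinery, had interactions between 0.91 and 1.1 and were lost. Hnrnpk, Srsf1, Srsf3 and Hnrnpf turned from lower to higher. Malat1 (1.6, adjusted p = 0.109) and Neat1 (0.04, adjusted p = 0.949), nuclear noncoding RNAs in the same list, missed the threshold.

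**Figure D5:**
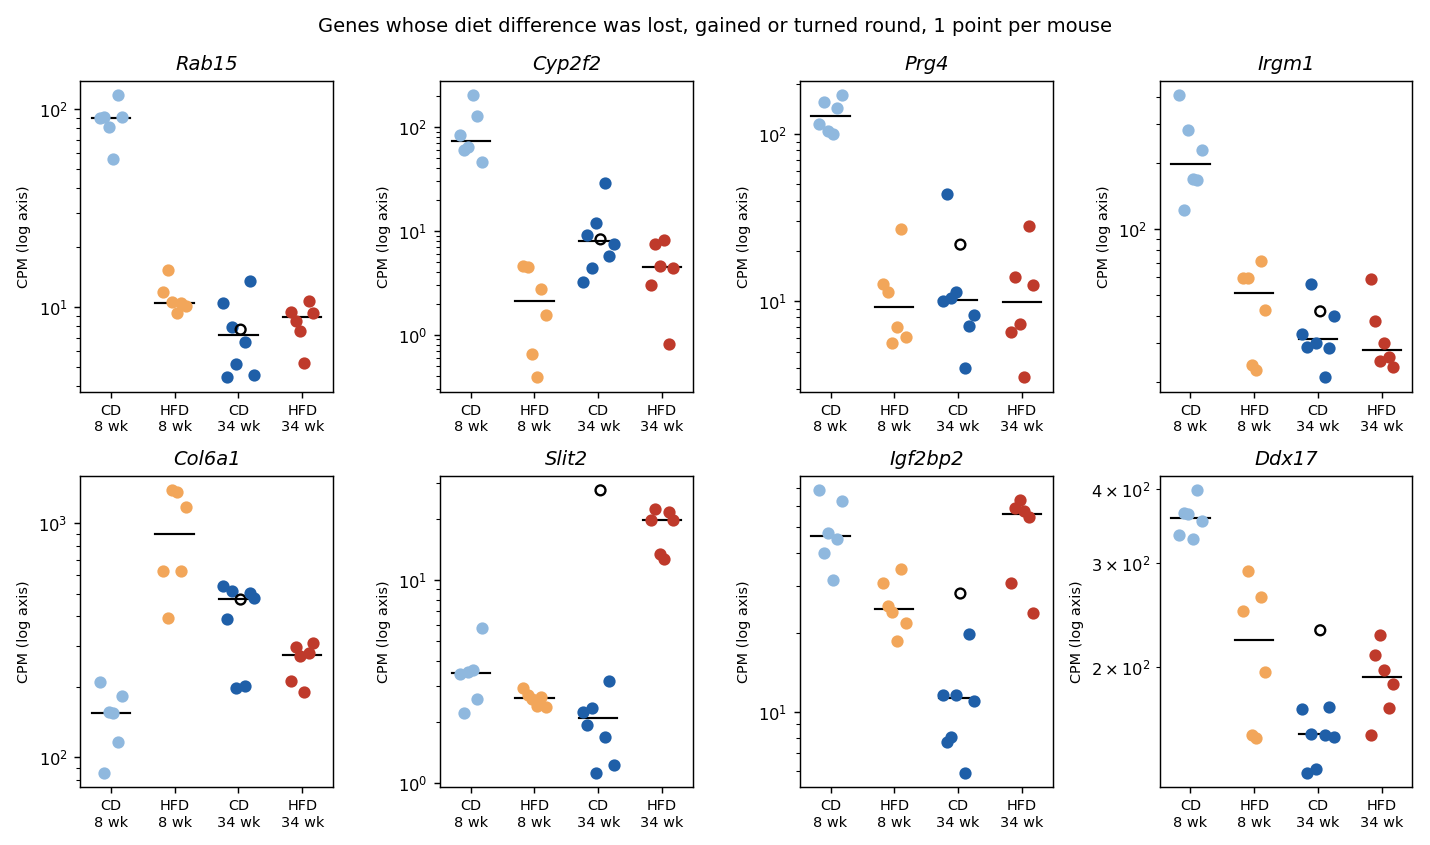
CPM per mouse on a log axis for 8 genes, by diet and week, with 1 point per mouse and a line at the group median. The open circle is mouse 5 of the 34 week CD group. Rab15, Cyp2f2, Prg4, Irgm1 and Ddx17 are high in 8 week CD mice alone, Col6a1 is highest in 8 week HFD mice, and Slit2 is high in 34 week HFD mice (12.7 to 22.3 CPM) and in mouse 5.

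Interferon-stimulated genes had interactions about as often as other genes, 8 of 31 tested where 22.1% of all genes tested were called. Of these 6 were positive (Irf9, Irf1, Cxcl10, Igtp, Irf8 and Irgm1) and 2 negative (Ifit2 and Irf7), and the median of -0.02 changed sign with the scaling. Irgm1 (Entrez 15944, chromosome 11, 48865245 to 48871420), an interferon-gamma-induced GTPase, was at 121 to 409 CPM (median 199) in 8 week CD, 22.7 to 71 (51) in 8 week HFD, 20.9 to 56 (31.4) in 34 week CD and 23.3 to 58.7 (27.9) in 34 week HFD mice. The 8 week CD mice lay above all others. The interaction was 2.21 (SE 0.417, adjusted p = 0.00103). Irf8, a factor of myeloid cells, turned from -1.09 to 1.08 (interaction 2.17, adjusted p = 0.00529). Irf7 was gained as lower at 34 weeks (-0.99, adjusted p = 0.0411).

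Of the 371 genes gained as higher on HFD, 185 changed with time on HFD alone and 119 on CD alone. Slit2 (Entrez 20563, chromosome 5, 47981291 to 48307735), a secreted guidance protein, was at 2.2 to 5.79 CPM (median 3.47) in 8 week CD, 2.38 to 2.94 (2.62) in 8 week HFD, 1.13 to 27.5 (2.08) in 34 week CD and 12.7 to 22.3 (19.6) in 34 week HFD mice. Mouse 5 held the 27.5 CPM, and the other 34 week CD mice were at 3.16 CPM or less. The interaction was 2.57 (SE 0.546, adjusted p = 0.00241), and 2.99 (SE 0.25, adjusted p = 1.39e-07) without that mouse. Zranb3, a translocase of DNA repair, rose on HFD, to 51.7 to 175 CPM against 3.82 to 61.7 CPM in 34 week CD mice, with mouse 5 again the highest of the CD mice (interaction 2.41, adjusted p = 0.0147). It was not called in the tests on counts (edgeR adjusted p = 0.173). Cd14, a receptor for lipopolysaccharide, was alone among 24 macrophage markers in having a called interaction (2.33, adjusted p = 0.0183). It was at 71.7 to 299 CPM in 8 week CD, 79 to 132 in 8 week HFD, 43.7 to 678 in 34 week CD and 216 to 1010 in 34 week HFD mice. Mouse 5 held the 678 CPM, and the other 34 week CD mice were at 216 CPM or less.

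Igf2bp2 (Entrez 319765, chromosome 16, 22059009 to 22163299), an mRNA-binding protein, turned round. It was at 31.6 to 68.7 CPM (median 46.2) in 8 week CD, 18.6 to 34.6 (24.5) in 8 week HFD, 5.93 to 28.1 (11.3) in 34 week CD and 23.7 to 63.1 (56.1) in 34 week HFD mice. The 34 week CD mice all lay below the 8 week CD mice, with mouse 5 the highest. The interaction was 2.77 (SE 0.399, adjusted p = 0.000203), and the arms moved apart, by -1.95 on CD and 0.82 on HFD. C7, a component of the complement membrane attack complex, also moved down on CD (-1.73) and up on HFD (1.23), with an interaction of 2.96 (SE 0.534, adjusted p = 0.000763). Gnal, a G protein alpha subunit that stimulates adenylyl cyclase, rose on HFD from 5.21 to 12.4 CPM to 32.8 to 108 CPM, without overlap (interaction 3.47, SE 0.716, adjusted p = 0.00198).

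In stress and growth genes the share with a called interaction was above the 22.1% of all genes tested for the heat shock list. It was below 22.1% for the other lists of this paragraph. Among 19 cytosolic heat shock genes 5 were negative (Cryab, Hspe1, Hspa4l, Hspd1 and Ahsa1) and 2 positive (Hspa8 and Bag3), and with TMM factors 4 were negative and 2 positive. Bag3, a co-chaperone, fell on CD by 1.34 and was lost (interaction 1.32, SE 0.222, adjusted p = 0.000443). In the unfolded protein response, with 29 genes tested, Syvn1 was negative and Calr, Xbp1, Asns and Ern1 were positive. Of 37 proteasome genes 5 were negative and 0 positive, and 2 with TMM factors. Of 19 circadian clock genes 11 were lower on HFD at 8 weeks and 3 at 34 weeks, and Hlf, Csnk1e and Csnk1d had a positive interaction. Among 27 immediate early genes Ier2 and Fos were negative. Among 27 proliferation genes Ccne1 was negative and Mcm7 and Pcna positive, while 25 were higher in HFD mice at 34 weeks. Of 18 p53 and cell cycle arrest genes Ccng1 and Bbc3 were negative and Trp53 was positive.

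Markers of the other cell types rarely had a called interaction, although their diet differences were large. Of 24 macrophage markers 15 were higher and 0 lower in HFD mice at 8 weeks (median 1.51) and 21 and 0 at 34 weeks (median 1.73), with 1 positive and 0 negative interactions. The median interaction was 0.18, and 0.48 without mouse 5 of the 34 week CD group, where the calls were again 1 and 0. On CD 22 rose and 0 fell with time and on HFD 23 rose and 1 fell. Cd68, a macrophage glycoprotein, was at 14.2 to 69 CPM in 8 week CD, 49.4 to 222 in 8 week HFD, 67.6 to 698 in 34 week CD and 382 to 1460 in 34 week HFD mice (interaction 0.09, SE 0.7, adjusted p = 0.942). With an SE this wide, a missing call does not show that the diet difference stayed the same. Endothelial markers gave 0 interactions of 17 tested, with 16 higher on HFD at 8 weeks and 10 at 34 weeks, and the MHC class II and dendritic list 0 of 8. Of 37 lysosome genes 3 were positive and 1 negative. Fibroblast and progenitor markers gave 1 positive (Dcn) and 1 negative (Col1a1) of 17, mural markers only Des of 10 and mesothelial markers only Msln of 4. Of 19 markers of lipid-associated macrophages Cd63 was positive and Fabp5 negative, and of 3 neutrophil and mast cell markers S100a8 was negative. The B cell list had 1 gene tested, the erythroid list 2, and the T and NK cell and the epididymis and testis lists 0, with 0 interactions among them. With the mean level of the macrophage markers in each mouse as a covariate, which itself moved with the groups, 2884 interactions were called, all 2279 of the fit without it among them. The diet at 34 weeks was then called in 323 genes and the change on HFD in 418, and 1876 interactions counted as lost, 148 as gained and 29 as turned round. Counts of gained and turned genes and the arm that moved are therefore to be read beside these macrophage levels.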

How the data were processed

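RNA of the adipocyte fraction of perigonadal fat was sequenced, and the values used were the CPM values deposited by the authors, 1 column per mouse, each summing to 1000000, with 3 technical replicates merged per mouse. The submitters' processing notes name STAR 2.5.2b and featureCounts of Subread 1.5.1. The study's methods name TMM scaling, which columns of equal sum do not carry. Divided by the CPM of 1 read in their column, 100% of values were whole reads within 0.1 reads, which gave the depth per mouse (9275711 to 15480388 reads) and allowed tests on counts. Without molecular identifiers, depth bounds counting error only.

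Genes with a mean log2(CPM + 1) above 2 over the 26 mice were fitted with limma 3.58.1 (trend, R 4.3.3), with 1 mean per group, 22 residual degrees of freedom and contrasts for the interaction, the diet at each time and the change on each diet. P-values were two-sided and Benjamini-Hochberg adjusted over all 10328 genes, the threshold was 0.05, and they measure the spread between these mice. The fit was tested on simulated data. A called interaction was classed by whether the diet was called at 8 weeks, 34 weeks or both, and by which diet's change with time was called.

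Named genes, apart from defining genes that were named whatever their call, were chosen among those called with each mouse left out in turn (1554 genes, 1497 without predicted ones): the 8 largest interactions in each direction, the 3 largest per class and direction, and the largest in each direction of each gene list. Other list members, the motif and the sequences were chosen after their values were seen. The mice, gene lists and tests were chosen with earlier results of these data known. Adgre1, a macrophage gene of that rule, was not analysed here. A gene that the rule names and a list member are not reported here. Of the genes, 27250 (93.5%) matched RefSeq GRCm38.p6 by Entrez identifier, which gave positions. No 2 mice of a group agreed within sampling noise (lowest chi-square per degree of freedom 10.6 over 73 pairs).

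Alternatives were TMM and median-of-ratios scaling, pseudocounts of 0.25 and 5, a filter above 4 or none beyond 1 read, all 6 groups, array weights, edgeR 4.0.16 (2265 interactions called) and DESeq2 1.42.0 (2732) on the recovered reads, mouse number as a block, the macrophage marker mean as a covariate, a 2-fold minimum and leaving out each mouse.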

Additional observations from a re-analysis of the deposited data

Results flagged for a closer look

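In 28 named genes and 4 groups, 112 sets of mice were examined for a mouse far from the rest, and 9 had one. These genes were chosen from the same data and share the same mice, so the sets are not independent. In 7 of the 9 it was mouse 5 of the 34 week CD group, which lay at 144 CPM for Scd2, 2.74 for Mogat2, 1.28 for Orm3, 52.9 for Cyp1b1, 13.1 for C7, 27.5 for Slit2 and 61.7 for Zranb3. The other sets were Pon1, at 44.1 CPM in mouse 5 of the 8 week CD group, and Cdkl4, at 0.989 CPM in mouse 4 of the 34 week HFD group. The diet effect differed between the times, by the test of that difference, in 999 genes with a positive and 1280 with a negative interaction.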

How the results depend on the processing

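No value compared here that was called changed sign under the alternatives run, but the balance of higher and lower calls turned with the scaling: with median-of-ratios factors 1237 interactions were positive and 1039 negative, 1879 genes were higher and 2047 lower on HFD at 8 weeks, and 3080 rose and 3105 fell on CD. The interaction count of 2279 was 2188 with TMM factors, 2276 with median-of-ratios factors, 2265 with edgeR and 2732 with DESeq2. With all 6 groups in the fit 431 genes were turned round. With array weights per group there were 2640 interactions, 5648 and 2869 diet calls at 8 and 34 weeks, 1581 lost and 597 gained. With array weights per mouse there were 3977 interactions, 6973 diet calls at 8 weeks, 2329 lost, 610 turned round and 1011 that changed on HFD alone. With the macrophage covariate the diet at 34 weeks gave 323 calls and the change on HFD 418, with 1876 lost, 148 gained, 29 turned round, 2051 changed on CD alone and 139 on HFD alone. A 2-fold minimum left 652 interactions, 1136 and 984 diet calls at 8 and 34 weeks, and 1575 and 1320 changes on CD and HFD. With a mouse left out, interactions ranged from 1646 to 2993, diet calls from 3070 to 4332 at 8 weeks and 2789 to 4626 at 34 weeks, changes from 5966 to 6427 on CD and 4265 to 5161 on HFD, lost genes from 860 to 1281, gained from 353 (402 without mouse 2 of the 34 week HFD group) to 1120, turned from 156 to 453, CD alone from 991 to 1517 and HFD alone from 355 (without mouse 3 of the 34 week HFD group) to 825. The causes were not tested. With a replicate block on mouse number 2278 interactions were called, 1901 of them (83.4%) among the 2279, and Cd14 (adjusted p = 0.0525), Ctsc (0.0533) and Msln (0.07) missed the threshold. What the mouse numbers mean is not given in the labels. Deviations of 36 same-numbered pairs correlated at -0.53 to 0.527 (median -0.133, 12 above 0.1), against a median of 0.0146 for other numbers. A batch shared by some of the numbers was not tested. Zranb3 also missed the threshold with DESeq2 (0.118). Depth limits the lowest genes, since 1 read was worth 0.0646 to 0.108 CPM.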
